A study of Homo sapiens with 17 samples.

Results

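The ATP-binding cassette (ABC) family was followed in BEAS-2B cells, an immortalised line of human bronchial epithelium, through 24 h of exposure to acetaldehyde, an aldehyde of tobacco smoke and of ethanol breakdown. Members were the rows of the deposited gene table whose symbol names a subfamily from ABCA to ABCG followed by a digit and whose listed gene span was under 400000 bases. That rule took 38 of 16884 genes: 11 of subfamily A, 7 of B, 7 of C, 4 of D, 1 of E, 3 of F and 5 of G. Poly-A RNA was sequenced from 6 unexposed control libraries, 6 libraries at 10 mM and 5 libraries at 16 mM acetaldehyde. All 3 groups were wild-type cells of this 1 line in BEGM medium, and the labels do not say whether libraries came from separate cultures. The p-values below therefore cover the spread among the deposited libraries, which may be technical.

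The span limit left out 5 rows with a family symbol. ABCA13 has a listed span of 476.1 kb, and the longest member inside the limit, ABCC4, has 281.6 kb. The other 4, ABCB11, ABCC1, ABCC6 and ABCF1, are placed on scaffolds with a start and an end that do not belong to the same sequence, which gives listed spans of 14416.1 to 168924.0 kb. ABCC1 and ABCF1 are expressed and are given below beside the members of like function, without being counted among them.

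ABC proteins bind and split ATP with paired nucleotide-binding domains, and in most of them this drives a substrate across a membrane. Subfamily A and much of G move sterols and phospholipids, members of B and C export drugs, conjugates and peptides or sit in the mitochondrial membrane, and D serves peroxisomes and lysosomes. ABCE1 and the F proteins have no membrane domains and act on ribosomes. In the lung the family is known for CFTR, the chloride channel of airway epithelium, whose symbol the rule does not take, for ABCA3, which loads surfactant lipid in alveolar type II cells, and for the efflux pumps of the C subfamily that remove glutathione and glucuronide conjugates.

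Total estimated counts were 15952673 to 18809242 per library, of which the members took 0.117 to 0.136% in 16 libraries and 0.076% in 10 mM library 1. That library stood apart. Its correlation with the other 10 mM libraries was 0.912 to 0.926 on the log2(FPKM + 1) scale, against at least 0.99 for all other pairs of 1 group, and its TMM scaling factor was 0.559. FPKM (fragments per kilobase of transcript, scaled to library depth) does not carry that factor. Divided by it, FPKM of 10 mM library 1 would be 1.79 times higher, which is called the edgeR scale below. That scale is approximate, since edgeR fitted counts and not FPKM, and the other libraries have factors of their own. The remaining libraries fell into close sets (control 1 to 3 and 4 to 6, 10 mM 2 to 4 and 5 to 6, 16 mM 1 to 3 and 4 to 5), with correlations of 0.9969 to 0.9987 inside a set and 0.9905 to 0.9957 across the sets of 1 group. The labels name no batch that would account for them.

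Of the epithelial markers, KRT7, KRT8, KRT17 and KRT18 averaged 662, 356, 115 and 390 FPKM over all libraries, and EPCAM, CDH1, KRT5, KRT19 and TP63 were each under 0.1 FPKM. The surfactant gene SFTPC averaged 0.0541 FPKM. Leucocyte markers, 7 in the table, summed to 3.21 to 4.93 FPKM in control libraries, 9.19 to 13.5 FPKM at 10 mM and 11.5 to 14.6 FPKM at 16 mM, most of it CD68 at 8.03 FPKM on average, with PTPRC, CD3E, ITGAM and CSF1R under 0.1 FPKM. Fibroblast markers, 9 in the table, summed to 34.3 to 52.7 FPKM in control libraries, 26.5 to 36.0 FPKM at 10 mM and 21.2 to 26.5 FPKM at 16 mM. Of the 9, 5 averaged at least 1 FPKM over all libraries, and COL1A2 and COL3A1 were under 0.1 FPKM. Of 7 tested, 5 were called lower at 16 mM and 4 at 10 mM, with 0 higher, beside 18.1 and 9.3% of all tested genes lower. Without 10 mM library 1, 6 were lower at 16 mM (32.2% of all genes), and 5 lower and 1 higher at 10 mM (22.8 and 22.4%). The part of either list in the changes below was not tested. In such bulk samples, fewer cells of a type and less RNA per cell cannot be told apart.

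The promoters of 4 genes are shown here because they belong to members whose changes carry the account: ABCA5 and ABCA6 lie in the same gene cluster and fell at both doses, ABCC2 was the member called higher at 16 mM, and ABCE1 is the most abundant member with a ribosomal role. Each runs 250 bases before to 50 bases after the gene start, 5′ to 3′ on the strand of the gene, from RefSeq on GRCh38.p14, and capitals mark CG dinucleotides.
ABCA5, chr17:69327084-69327383, minus strand: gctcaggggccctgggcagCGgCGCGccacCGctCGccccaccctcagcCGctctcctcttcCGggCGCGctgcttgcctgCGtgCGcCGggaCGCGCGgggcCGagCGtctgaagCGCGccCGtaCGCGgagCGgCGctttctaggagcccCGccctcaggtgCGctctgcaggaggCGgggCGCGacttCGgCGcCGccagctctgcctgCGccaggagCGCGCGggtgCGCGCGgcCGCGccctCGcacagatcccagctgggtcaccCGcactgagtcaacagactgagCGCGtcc
ABCA6, chr17:69141846-69142145, minus strand: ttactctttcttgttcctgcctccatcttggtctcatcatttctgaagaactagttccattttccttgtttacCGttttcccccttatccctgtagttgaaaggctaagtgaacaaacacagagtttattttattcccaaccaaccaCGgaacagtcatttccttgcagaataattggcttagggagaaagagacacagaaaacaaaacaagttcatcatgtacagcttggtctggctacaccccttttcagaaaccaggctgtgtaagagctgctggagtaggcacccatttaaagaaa
ABCC2, chr10:99782390-99782689, plus strand: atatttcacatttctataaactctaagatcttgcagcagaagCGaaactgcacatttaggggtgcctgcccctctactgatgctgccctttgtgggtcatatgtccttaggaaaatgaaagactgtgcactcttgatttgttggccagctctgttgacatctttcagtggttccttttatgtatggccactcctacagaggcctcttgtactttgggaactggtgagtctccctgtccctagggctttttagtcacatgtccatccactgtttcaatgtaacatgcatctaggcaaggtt
ABCE1, chr4:145098061-145098360, plus strand: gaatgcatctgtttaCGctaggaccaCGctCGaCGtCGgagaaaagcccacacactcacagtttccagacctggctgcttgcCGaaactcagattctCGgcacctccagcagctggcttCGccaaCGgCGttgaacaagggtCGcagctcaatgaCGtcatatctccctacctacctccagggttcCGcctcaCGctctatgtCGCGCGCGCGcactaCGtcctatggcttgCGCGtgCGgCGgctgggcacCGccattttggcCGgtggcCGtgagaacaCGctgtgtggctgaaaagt

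The ABCA5 promoter holds 45 CG dinucleotides and that of ABCE1 holds 28, whereas ABCA6 holds 2 and ABCC2 holds 1. The median was 26 over the 10184 tested genes with a listed promoter, 14 over all 35116 promoters of that table and 23 over the 29 members it holds. Of the 10 members that fell at 16 mM, 5 have a listed promoter, and ABCA8, ABCB5, ABCC3 and ABCG1 have none. Both kinds of promoter were found among those 5: besides ABCA5 and ABCA6, ABCA3 holds 42, ABCB8 15 and ABCD2 8. The 16 members with a promoter that were not called at 16 mM held 3 to 47, with a median of 26. TATAAA, searched on both strands like every motif here, occurred in 5 of 29 member promoters, that of ABCC2 among them, and in 11.5% of all promoters. TGANNNNGC, the core of the antioxidant response element, occurred in 12 of 29 member promoters, again with ABCC2, and in 41.8% of all. GGGCGG was in 17 of 29 and 45.0% of all, CCAAT in 6 of 29 and 34.6% of all, and CACGTG in 3 of 29 and 7.3% of all. These motifs do not contain one another, and a match is a description of letters only.

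After 24 h at 16 mM, 10 members fell and 1 rose, and 18 tested members did not pass the threshold. Among those that fell were ABCA3, ABCA5, ABCA6, ABCA8, ABCB5, ABCB8, ABCC3, ABCD2 and ABCG1, and the member that rose was ABCC2. At 10 mM, 6 members fell (ABCA5, ABCA6, ABCA8, ABCB5, ABCB8 and ABCC3), all of them also lower at 16 mM, and ABCF3 rose. The comparisons of 16 mM and of 10 mM with control share the control libraries. Levels allowed a test in 29 of 38 members, by edgeR's quasi-likelihood test over 12564 genes, with calls at a Benjamini-Hochberg adjusted p under 0.05.

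Among all genes tested at 16 mM, 17.3% were called higher and 18.1% lower, so 10 of 29 members lower lies above that share and 1 of 29 higher lies below it, with no test of either gap. At 10 mM, 9.41% of all genes were called higher and 9.3% lower, beside 1 and 6 of 29 members. The members' median log2 change was -0.09 at 10 mM, against 0.05 over all tested genes, but 0.03 against 0.00 when 10 mM library 1 was left out, and at 16 mM both medians were 0.00. Leaving out 10 mM library 1, which lowered the standard errors, gave 9 members higher and 13 lower at 16 mM (33.7 and 32.2% of all genes) and 8 higher and 7 lower at 10 mM (22.4 and 22.8% of all genes). When each close set was summed into 1 library, 0 of 13525 genes passed in any comparison by edgeR. In that fit 1288 genes and 6 members had an unadjusted p under 0.05 at 16 mM, and 738 genes and 3 members at 10 mM. It kept 10 mM library 1 as a unit of its own, and no summed fit left that library out. The 0 calls are therefore not those of the close sets alone. With the close sets as a term in the fit, added after the data were seen and with 10 mM library 1 left out, 10 members were higher and 13 lower at 16 mM (37.5 and 36.5% of all genes), 10 were higher and 12 lower at 10 mM (28.6 and 28.9%), and 4 were higher and 13 lower at 16 mM than at 10 mM (29.5 and 28.1%).

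**Figure D1:**
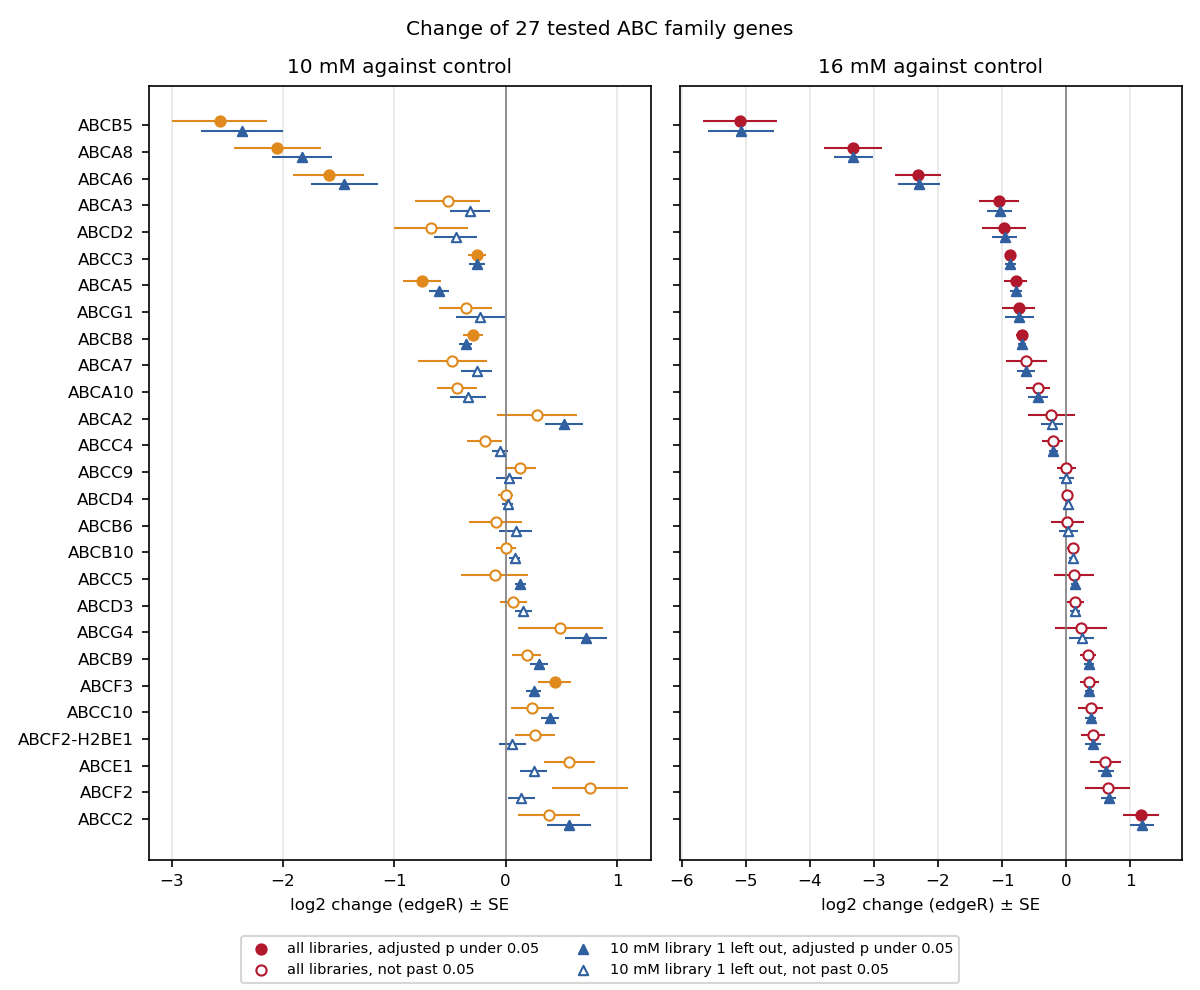
Log2 change with its standard error for 27 of the 29 tested members at 10 mM (left) and 16 mM (right) against control; circles use all 17 libraries and triangles leave out 10 mM library 1, and filled symbols passed an adjusted p under 0.05 (the panels differ in scale). ABCB5, ABCA8 and ABCA6 lie farthest to the left in both panels, and ABCC2, ABCF2 and ABCE1 are at the right-hand end at 16 mM.

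Levels of the members spanned from 0 to about 50 FPKM in control cells. Of 38 members, 12 averaged at least 10 FPKM, 13 lay between 1 and 10 FPKM, 4 between 0.1 and 1 FPKM (ABCA10, ABCA6, ABCC2 and ABCG4), and 9 were under 0.1 FPKM. ABCD3, a peroxisomal carrier, was highest at 50.9 ± 5.24 FPKM (SD, n = 6), followed by ABCE1 at 42.5 ± 2.18 FPKM, whose range overlapped that of ABCD3. ABCF3 at 27.1 ± 1.39 FPKM was below ABCE1 in every control library, and did not separate from ABCC3 at 24.4 ± 1.35 FPKM. Further down, ABCA3, ABCA8 and ABCC4 averaged 7.89, 7.75 and 7.63 FPKM with overlapping ranges. The 9 members under 0.1 FPKM, which were not tested, were ABCA1, ABCA4, ABCA9, ABCA12, ABCB4, ABCC11, ABCG2, ABCG5 and ABCG8.

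**Figure D2:**
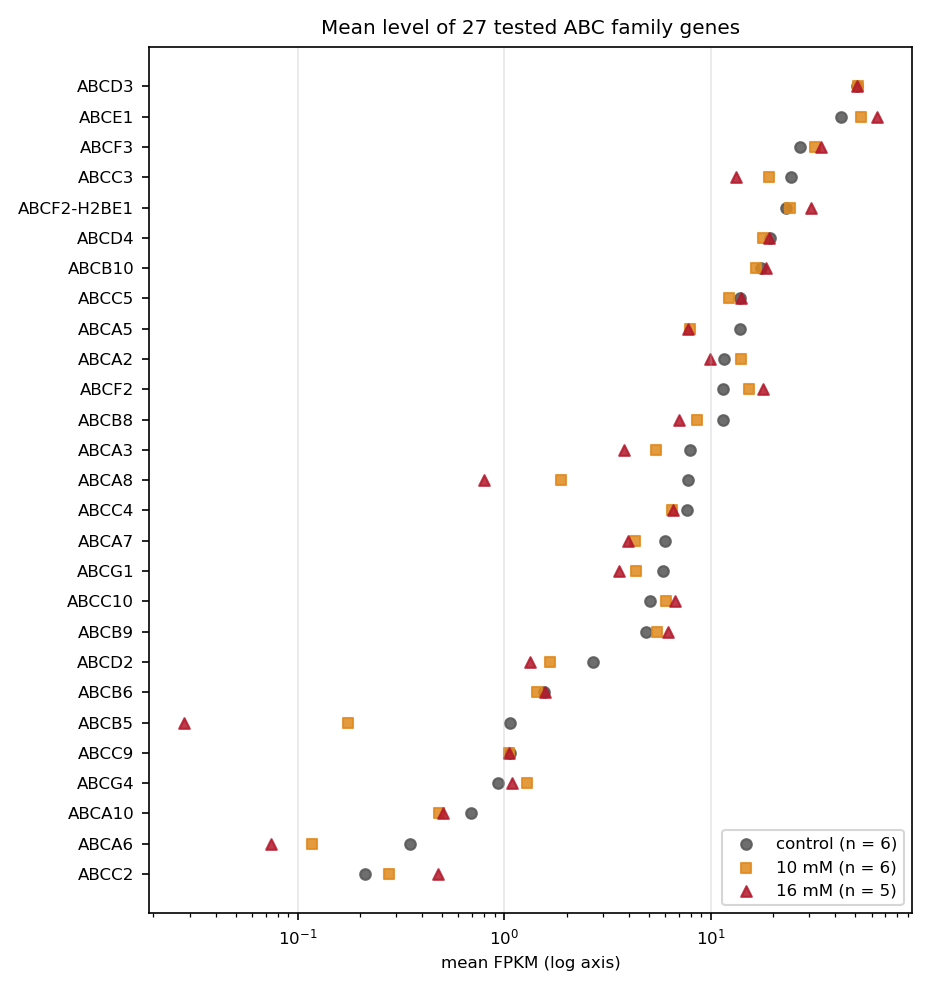
Mean FPKM on a log axis of 27 of the 29 tested members in control cells (n = 6), at 10 mM (n = 6) and at 16 mM (n = 5), ordered by the control mean. Most members keep their place on the axis, while ABCB5, ABCA8 and ABCA6 move farthest left with dose, with control means of 1.06, 7.75 and 0.348 FPKM.

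The strongest falls of subfamily A were in a cluster of neighbouring genes at 17q24.2 and 17q24.3 (ABCA5, ABCA6, ABCA8, ABCA9 and ABCA10, transporters of lipids or of substrates still little known). Of its 4 tested genes, 3 fell at 16 mM and the same 3 at 10 mM, beside 18.1 and 9.3% of all tested genes. The median log2 change of the 4 was -1.55 at 16 mM and -1.17 at 10 mM. ABCA8, at chr17:68867285-68955415 and linked to cholesterol efflux, had a lowest, median and highest control value of 5.54, 7.80 and 9.99 FPKM. At 10 mM these were 0.19, 2.06 and 2.82 FPKM, and the 16 mM libraries had 1.17, 0.97, 1.20, 0.39 and 0.26 FPKM. Every exposed library lay below every control library, also without 10 mM library 1, where the lowest 10 mM value was 1.63 FPKM. Control libraries 4 to 6, at 9.15 to 9.99 FPKM, lay above control libraries 1 to 3, at 5.54 to 6.44 FPKM, and 16 mM libraries 4 and 5 lay below 16 mM libraries 1 to 3. In edgeR the log2 change of ABCA8 was -3.33 ± 0.45 (SE, adjusted p = 2.66e-05) at 16 mM and -2.05 ± 0.39 (adjusted p = 0.00175) at 10 mM.

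ABCA5, a transporter of lysosomes and late endosomes at chr17:69244311-69327133, is the abundant gene of this cluster. Its lowest, median and highest values were 12.5, 13.9 and 15.0 FPKM in control libraries and 2.17, 8.68 and 10.5 FPKM at 10 mM, and the 16 mM libraries had 9.41, 8.26, 8.40, 6.85 and 6.01 FPKM. Exposed and control libraries did not overlap, while the exposed groups overlapped each other. ABCA5 had an edgeR log2 change of -0.79 ± 0.18 (adjusted p = 0.00258) at 16 mM and -0.75 ± 0.17 (adjusted p = 0.00602) at 10 mM, and at 10 mM it was -0.60 ± 0.09 without 10 mM library 1. ABCA6, named after its values were seen, lay at 0.22 to 0.52 FPKM in control libraries (17 to 47 counts), 0.02 to 0.18 FPKM at 10 mM and 0.02 to 0.14 FPKM at 16 mM (2 to 10 counts). Its edgeR log2 change was -2.31 ± 0.36 (adjusted p = 0.000121) at 16 mM and -1.59 ± 0.32 (adjusted p = 0.00267) at 10 mM, at counts that leave the size loosely fixed. ABCA10 averaged 0.506 FPKM at 16 mM and 0.693 FPKM in control cells and was not called (log2 change -0.44, adjusted p = 0.0816 in edgeR; 0.0268 without 10 mM library 1). Of the transcript windows of 50 bases, ABCA5 shares 3.3% with ABCA10, ABCA10 shares 4.3% with ABCA5 and ABCA8 shares 1.0% with ABCA9, so a small part of the reads could be split among them.

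**Figure D3:**
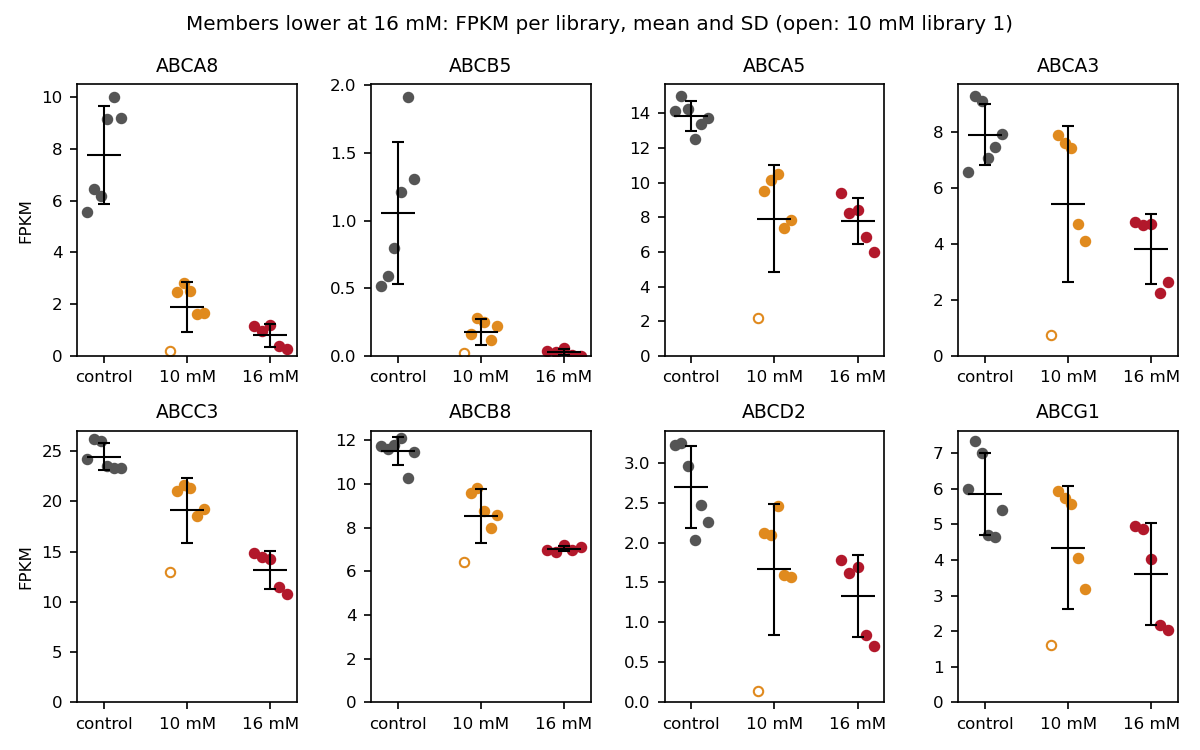
FPKM in each library for 8 members called lower at 16 mM, by dose, with the mean and SD as a bar; the open circle is 10 mM library 1. For ABCA8, ABCB5, ABCA5, ABCC3 and ABCB8 every exposed library lies below the lowest control in FPKM. FPKM of 10 mM library 1 lacks its TMM factor, with which that library would reach the control range for ABCB8. For ABCA3, ABCD2 and ABCG1 some 10 mM libraries reach the control range.

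Among the sterol and phospholipid transporters outside that cluster, 2 of 5 tested genes fell at 16 mM and 0 of 5 passed at 10 mM, by edgeR. Over all tested genes, 18.1% fell at 16 mM, and 9.41% rose and 9.3% fell at 10 mM. Without 10 mM library 1, 3 fell at 16 mM and 2 rose at 10 mM, beside 32.2 and 22.4% of all genes. ABCA3, which packs surfactant phospholipid into lamellar bodies in alveolar cells, ran from 6.54 to 9.25 FPKM in control libraries with a median of 7.69. It ran from 0.74 to 7.87 FPKM at 10 mM and had 4.77, 4.65, 4.72, 2.23 and 2.65 FPKM at 16 mM. All 16 mM libraries lay below all controls, and 10 mM libraries 2 to 4, at 7.42 to 7.87 FPKM, lay inside the control range. The edgeR log2 change was -1.05 ± 0.31 (adjusted p = 0.0154) at 16 mM, and at 10 mM it was -0.52 ± 0.29 (adjusted p = 0.212).

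ABCG1, which passes cellular cholesterol to high-density lipoprotein, ran from 4.65 to 7.33 FPKM in control libraries and from 1.60 to 5.93 FPKM at 10 mM, and had 4.95, 4.86, 4.03, 2.16 and 2.04 FPKM at 16 mM. The 16 mM and control ranges overlapped, since 16 mM libraries 1 and 2 reached the level of control libraries 4 and 5. ABCG1 changed by -0.74 ± 0.26 on the log2 scale at 16 mM (adjusted p = 0.0333, edgeR). That call was lost when control library 1, 2 or 3 or 16 mM library 4 or 5 was left out, with adjusted p up to 0.0947. At 10 mM the log2 change was -0.36 ± 0.24 (adjusted p = 0.303, edgeR).

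Of the other lipid transporters, ABCA7 averaged 3.97 ± 1.02 FPKM at 16 mM (SD, n = 5) and 6.00 ± 0.283 FPKM in control cells (SD, n = 6), without overlap, but its edgeR log2 change of -0.62 ± 0.32 did not pass (adjusted p = 0.149; 0.00127 without 10 mM library 1). ABCA2 split by close set at 10 mM, with 19.3 to 19.7 FPKM in libraries 2 to 4 and 12.0 to 12.6 FPKM in libraries 5 and 6, and was not called at either dose (adjusted p = 0.601 at 10 mM by edgeR; 0.0184 and higher without 10 mM library 1). ABCA1, the exporter of cholesterol and phospholipid to apolipoprotein A-I, held 1 to 12 counts per library and 0.01 to 0.07 FPKM throughout, too low to be tested. In a list of 12 genes of the liver X receptor (LXR) axis, which controls sterol efflux, 2 were higher and 3 lower at 16 mM (17.3 and 18.1% of all tested genes). At 10 mM 2 were higher and 0 lower (9.41 and 9.3%). Leaving out 10 mM library 1 gave 2 higher and 6 lower at 16 mM (33.7 and 32.2% of all genes), and 3 higher and 3 lower at 10 mM (22.4 and 22.8%). APOE, an apolipoprotein, had the smallest p at 16 mM, at 1.55 FPKM there and 0.237 FPKM in control cells (log2 change 2.71 ± 0.38, adjusted p = 4.16e-05, edgeR). MYLIP, which degrades the LDL receptor, rose by 0.50 ± 0.15 (adjusted p = 0.0123, edgeR), and NR1H3, which encodes LXR alpha, changed by -0.54 ± 0.13 (adjusted p = 0.00277, edgeR).

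Drug and conjugate efflux pumps moved in both directions, with 1 of 6 tested members higher and 2 lower at 16 mM (17.3 and 18.1% of all tested genes). Without 10 mM library 1, 3 were higher and 3 lower (33.7 and 32.2% of all genes). ABCB5, a pump studied in limbal stem cells and melanoma, had the largest fitted fall of the tested members. Its lowest, median and highest control values were 0.52, 1.00 and 1.91 FPKM, and those at 10 mM were 0.02, 0.19 and 0.28 FPKM. At 16 mM the libraries had 0.04, 0.03, 0.06, 0.01 and 0.00 FPKM, which rest on 3, 2, 4, 1 and 0 counts, beside 36 to 133 counts in control libraries. No exposed library reached the lowest control, and control libraries 4 to 6, at 1.21 to 1.91 FPKM, lay above control libraries 1 to 3, at 0.52 to 0.80 FPKM. The edgeR log2 change was -5.09 ± 0.58 (adjusted p = 5.48e-06) at 16 mM and -2.57 ± 0.43 (adjusted p = 0.000626) at 10 mM, and at so few counts its size depends on the prior count of the fit.

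ABCC3, which exports glucuronide conjugates across the basolateral membrane, is the most abundant pump among the members. Control libraries ran from 23.3 to 26.2 FPKM with a median of 23.9, 10 mM libraries from 12.9 to 21.6 FPKM with a median of 20.1, and 16 mM libraries had 14.9, 14.4, 14.2, 11.5 and 10.8 FPKM. In FPKM the groups were ordered by dose without overlap once 10 mM library 1 was left out. Its 12.9 FPKM fell in the 16 mM range, but on the edgeR scale it would be 1.79 times higher and above that range. ABCC3 fell by 0.87 ± 0.09 on the log2 scale at 16 mM (adjusted p = 1.22e-06, edgeR), to 0.546 of the control level. At 10 mM the log2 change was -0.26 ± 0.08 (adjusted p = 0.0355, edgeR). That 10 mM call was lost without control library 1, 2, 3, 4 or 6 or 10 mM library 5 or 6, with adjusted p up to 0.0739, while without 10 mM library 1 the log2 change was -0.26 ± 0.07 (adjusted p = 0.00869).

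ABCC2, the apical exporter of bilirubin glucuronide and glutathione conjugates, went the other way at a low level and is named here after its values were seen. Control libraries held 11 to 25 counts (0.12 to 0.27 FPKM), 10 mM libraries 4 to 35 counts (0.04 to 0.38 FPKM) and 16 mM libraries 41, 44, 34, 51 and 50 counts (0.44, 0.47, 0.39, 0.55 and 0.53 FPKM). In FPKM the 16 mM libraries lay above every library of the other groups, but in counts the lowest 16 mM library, at 34, lay below the highest 10 mM library, at 35. ABCC2 rose by 1.17 ± 0.28 on the log2 scale at 16 mM (2.25-fold, adjusted p = 0.00391, edgeR), while at 10 mM the change was 0.39 ± 0.28 (adjusted p = 0.331; 0.0285 without 10 mM library 1).

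The remaining pumps differed less from control. ABCC10 averaged 6.68 ± 0.794 FPKM at 16 mM (SD, n = 5) and 5.08 ± 0.557 FPKM in control cells (SD, n = 6) and did not pass by edgeR (log2 change 0.38, adjusted p = 0.147; 0.00037 without 10 mM library 1). ABCC4 and ABCC5, exporters of cyclic nucleotides among other substrates, had log2 changes of -0.21 ± 0.16 and 0.12 ± 0.31 at 16 mM, neither past the threshold (edgeR adjusted p = 0.341 and 0.80; 0.0147 and 0.0253 without 10 mM library 1). ABCC1, the main glutathione conjugate exporter of many cells and outside the span limit, averaged 26.6 ± 1.97 FPKM in control cells (SD, n = 6), 24.1 ± 9.04 FPKM at 10 mM (SD, n = 6) and 24.3 ± 1.03 FPKM at 16 mM (SD, n = 5). Its edgeR log2 change was -0.12 ± 0.19 at 16 mM (adjusted p = 0.656) and -0.10 ± 0.18 at 10 mM (adjusted p = 0.714). Without 10 mM library 1, which had 5.77 FPKM, ABCC1 averaged 27.8 ± 1.02 FPKM at 10 mM (SD, n = 5). The 10 mM log2 change was then 0.06 ± 0.07 (adjusted p = 0.503, edgeR). ABCG2, the breast cancer resistance protein, held 0 to 4 counts in control libraries, 0 to 5 at 10 mM and 1 to 4 at 16 mM, and was not tested.

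Genes that supply and use glutathione, whose conjugates several of these pumps carry, were followed as a list of 14 tested genes. At 16 mM 3 were higher and 2 lower (17.3 and 18.1% of all tested genes), and at 10 mM 4 were higher and 1 lower (9.41 and 9.3%). Without 10 mM library 1, 5 were higher and 5 lower at 16 mM (33.7 and 32.2% of all genes), and 5 higher and 4 lower at 10 mM (22.4 and 22.8%). GCLM and GCLC, the subunits of the rate-limiting enzyme of glutathione synthesis, rose at 16 mM by 1.69 ± 0.20 (adjusted p = 5.64e-06, edgeR) and 1.12 ± 0.17 (adjusted p = 9.34e-05, edgeR) on the log2 scale. GCLM averaged 41.0 FPKM at 16 mM and 12.7 FPKM in control cells, and GSR, which regenerates reduced glutathione, averaged 53.2 FPKM at 16 mM and 35.2 FPKM in control cells (adjusted p = 0.00273, edgeR).

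In the mitochondrial inner membrane, ABCB8 fell at both doses. ABCB8, linked in mouse heart to mitochondrial iron export, ran from 10.3 to 12.1 FPKM in control libraries with a median of 11.7, from 6.45 to 9.81 FPKM at 10 mM with a median of 8.67, and had 6.99, 6.91, 7.22, 6.97 and 7.11 FPKM at 16 mM. The 16 mM libraries lay within 6.91 to 7.22 FPKM, and in FPKM no exposed library reached the lowest control. The 6.45 FPKM of 10 mM library 1 would be 1.79 times higher on the edgeR scale, inside the control range. ABCB8 fell by 0.69 ± 0.10 on the log2 scale at 16 mM (adjusted p = 4.28e-05, edgeR) and by 0.29 ± 0.09 at 10 mM (adjusted p = 0.0391, edgeR). The 10 mM call held only when the library left out was control 5, 10 mM 1 or 16 mM 1, 4 or 5, and was lost when any of the other 12 was left out, with adjusted p up to 0.0841.

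ABCB10, which supports haem synthesis, averaged 18.5 ± 1.05 FPKM at 16 mM (SD, n = 5) and 17.5 ± 0.987 FPKM in control cells (SD, n = 6), a log2 change of 0.10 ± 0.09. ABCB6, a porphyrin carrier, had 1.57 and 1.56 FPKM in the same groups, and 90.8% of its transcript windows also occur in a readthrough transcript, so its counts are uncertain. Of 17 tested genes of mitochondrial iron-sulphur and haem synthesis, 2 were higher and 1 lower at 16 mM (17.3 and 18.1% of all tested genes). At 10 mM 2 were higher and 0 lower (9.41 and 9.3%). Leaving out 10 mM library 1 gave 6 higher and 2 lower at 16 mM (33.7 and 32.2% of all genes), and 6 higher and 1 lower at 10 mM (22.4 and 22.8%). ALAS1, the first enzyme of haem synthesis, rose by 0.95 ± 0.12 at 16 mM (adjusted p = 1.8e-05, edgeR) and NFS1, the cysteine desulphurase, by 0.53 ± 0.14 (adjusted p = 0.00558, edgeR), while PPOX, a later enzyme of the haem pathway, changed by -0.68 ± 0.13 (adjusted p = 0.000813, edgeR).

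Among peroxisomal and lysosomal transporters, ABCD2 fell at 16 mM and did not pass at 10 mM. ABCD2, which imports very long chain fatty acids into peroxisomes, ran from 2.03 to 3.24 FPKM in control libraries with a median of 2.72 and from 0.14 to 2.46 FPKM at 10 mM, and had 1.78, 1.62, 1.69, 0.84 and 0.71 FPKM at 16 mM. The 16 mM and control libraries did not overlap. ABCD2 had an edgeR log2 change of -0.97 ± 0.35 at 16 mM (adjusted p = 0.0417) and -0.67 ± 0.33 at 10 mM (adjusted p = 0.158). Its 16 mM call held only when the library left out was control 4, 10 mM 1, 2, 3, 4 or 6 or 16 mM 1, and was lost when any of the other 10 was left out, with adjusted p up to 0.11.

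ABCB9, a lysosomal peptide transporter, averaged 6.19 ± 0.492 FPKM at 16 mM (SD, n = 5) and 4.83 ± 0.26 FPKM in control cells (SD, n = 6), without overlap, and did not pass (log2 change 0.34 ± 0.13, adjusted p = 0.0568, edgeR; 0.00135 without 10 mM library 1). ABCD3 averaged 51.1 FPKM at 16 mM and 50.9 FPKM in control cells, and ABCD4, which serves cobalamin release from lysosomes, 19.2 and 19.3 FPKM in those groups. Among 13 genes of peroxisome import and beta-oxidation, 2 were higher and 2 lower at 16 mM (17.3 and 18.1% of all tested genes). At 10 mM 2 were higher and 0 lower (9.41 and 9.3%). Leaving out 10 mM library 1 gave 5 higher and 6 lower at 16 mM (33.7 and 32.2% of all genes), and 4 higher and 3 lower at 10 mM (22.4 and 22.8%). HSD17B4 and CAT, an enzyme of the pathway and catalase, fell by 0.56 ± 0.11 and 0.47 ± 0.10 at 16 mM (adjusted p = 0.000976 and 0.00177, edgeR).

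The soluble members that act in translation lay above control in every 16 mM library. With all libraries 0 of 3 passed at 16 mM, and 3 of 3 without 10 mM library 1. Over all tested genes, 17.3% were called higher at 16 mM, and 33.7% without 10 mM library 1. ABCE1, which splits ribosomes after termination, ran from 40.5 to 46.2 FPKM in control libraries with a median of 42.0, and from 41.4 to 67.1 FPKM at 10 mM with a median of 52.4. At 16 mM it had 55.8, 61.8, 58.2, 72.5 and 71.3 FPKM. Libraries 5 and 6 at 10 mM, with 59.5 and 61.4 FPKM, lay in the 16 mM range, and libraries 2 to 4, with 41.4 to 45.3 FPKM, in the control range. At 16 mM ABCE1 had an edgeR log2 change of 0.61 ± 0.24 (adjusted p = 0.0552), which passed when 10 mM library 1, 3 or 4 was left out, with adjusted p of 0.000269, 0.0461 and 0.0495. At 10 mM it was 0.57 ± 0.23 (adjusted p = 0.0896), and 0.25 ± 0.12 without 10 mM library 1. Of the transcript windows of ABCE1, 11.6% occur in other genes, mostly unnamed transcripts.

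ABCF3, an F protein related to yeast Gcn20, was the member called higher at 10 mM. Control libraries ran from 25.3 to 28.7 FPKM with a median of 27.3, 10 mM libraries from 30.6 to 35.7 FPKM with a median of 31.3, and 16 mM libraries had 34.1, 32.2, 32.5, 36.2 and 35.9 FPKM. Every exposed library lay above every control. By edgeR it changed by 0.44 ± 0.15 on the log2 scale (adjusted p = 0.0468) at 10 mM and 0.36 ± 0.15 (adjusted p = 0.0797) at 16 mM, and without 10 mM library 1 it was 0.25 ± 0.07 (adjusted p = 0.00577) and 0.36 ± 0.07 (adjusted p = 0.000135). With all but 1 library in the fit, the 10 mM call held only without 10 mM library 1, 2, 3 or 4, and was lost when any of the other 13 was left out, with adjusted p up to 0.0885.

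ABCF2, named after its values were seen, had 11.0 to 11.8 FPKM in control libraries. At 10 mM libraries 2 to 4 had 10.8 to 11.1 FPKM, libraries 5 and 6 had 16.2 and 13.8 FPKM, and library 1 had 28.7 FPKM. The 16 mM libraries had 15.9, 16.8, 16.6, 19.5 and 20.1 FPKM, all above control. The edgeR log2 change at 16 mM was 0.65 ± 0.35 (adjusted p = 0.163), and 0.66 ± 0.12 (adjusted p = 0.000107) without 10 mM library 1. The readthrough gene ABCF2-H2BE1, listed as a row of its own, averaged 30.4 ± 2.76 FPKM at 16 mM (SD, n = 5) and 23.1 ± 0.896 FPKM in control cells (SD, n = 6), and 53.5% of the ABCF2 windows occur elsewhere, so how reads were divided between both rows is uncertain. ABCF1, which supports translation initiation and lies outside the span limit, averaged 31.3 ± 1.70 FPKM in control cells (SD, n = 6), 39.8 ± 6.19 FPKM at 10 mM (SD, n = 6) and 46.5 ± 1.3 FPKM at 16 mM (SD, n = 5). It rose at both doses, by 0.58 ± 0.09 at 16 mM (adjusted p = 0.000151, edgeR) and 0.48 ± 0.09 at 10 mM (adjusted p = 0.00144, edgeR) on the log2 scale.

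**Figure D4:**
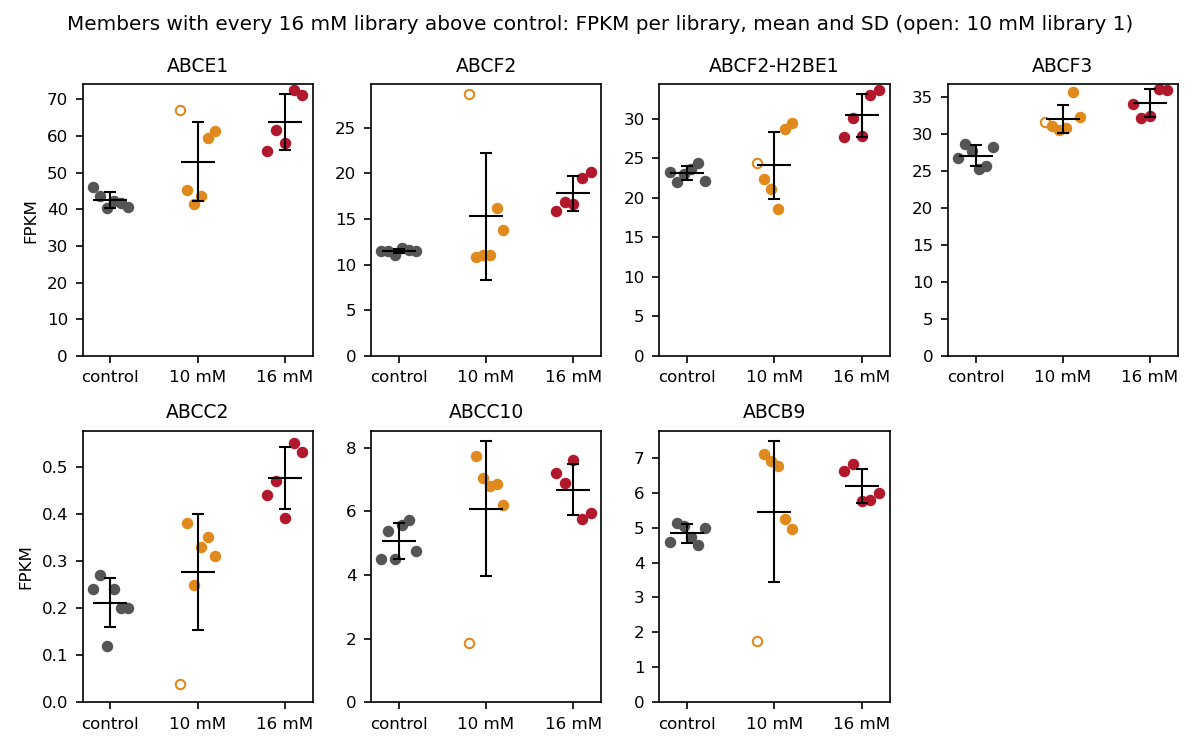
FPKM in each library for 7 of the 8 members whose 16 mM libraries all lie above all control libraries, by dose, with the mean and SD as a bar; the open circle is 10 mM library 1. At 10 mM, ABCE1 and ABCF2-H2BE1 split between libraries 5 and 6, which lie in the 16 mM range, and libraries 2 to 4, which lie in or below the control range, while for ABCF2 library 6, at 13.8 FPKM, lies between the control and 16 mM ranges.

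Ribosome rescue and termination factors, some of them partners of ABCE1, were followed as a list of 10 genes. Of these, 3 were higher and 0 lower at 16 mM, beside 17.3 and 18.1% of all tested genes. At 10 mM 2 were higher and 0 lower, beside 9.41 and 9.3% of all tested genes. Leaving out 10 mM library 1 gave 6 higher and 1 lower at 16 mM, and 4 higher and 1 lower at 10 mM (33.7 and 32.2%, and 22.4 and 22.8%, of all genes). GCN1, which senses collided ribosomes, rose by 0.64 ± 0.12 at 16 mM (adjusted p = 0.000582, edgeR). PELO, which recognises stalled ribosomes, rose by 0.61 ± 0.18 (adjusted p = 0.0162, edgeR) and GSPT1, a release factor, by 0.46 ± 0.16 (adjusted p = 0.0321, edgeR). The list's median log2 change was 0.28 at 16 mM and 0.19 at 10 mM, where all tested genes had medians of 0.00 and 0.05. With 10 mM library 1 left out, the list's medians were 0.29 at 16 mM and 0.03 at 10 mM, beside 0.01 and 0.00 over all genes.

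ABCC9, a regulatory subunit of ATP-sensitive potassium channels, averaged 1.06 FPKM in control cells, 1.05 FPKM at 10 mM and 1.05 FPKM at 16 mM. ABC proteins with symbols outside the rule were measured beside the family. TAP2, which with TAP1 feeds peptides to MHC class I, averaged 29.4 ± 0.86 FPKM in control cells (SD, n = 6), 36.6 ± 6.48 FPKM at 10 mM (SD, n = 6) and 46.8 ± 1.86 FPKM at 16 mM (SD, n = 5), and rose at 16 mM by 0.70 ± 0.08 on the log2 scale (adjusted p = 6.49e-06, edgeR). TAP1 changed by -0.25 ± 0.11 (adjusted p = 0.0842, edgeR), and CFTR, the chloride channel of airway epithelium, was listed at under 0.01 FPKM on average in each group.

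Between doses, 4 members were lower and 0 higher at 16 mM than at 10 mM, beside 7.46 and 6.69% of all tested genes, with 6 members at an unadjusted p under 0.05. Among these were ABCB5, ABCB8 and ABCC3, with edgeR log2 changes of -2.52 ± 0.64, -0.40 ± 0.10 and -0.61 ± 0.09. The adjusted p was 0.0167 for ABCB5, 0.0128 for ABCB8 and 0.000528 for ABCC3. The call of ABCB5 was lost without 16 mM library 4 (adjusted p = 0.0535). ABCA8 had -1.29 ± 0.42 (adjusted p = 0.0507, edgeR), and -1.49 ± 0.31 (adjusted p = 0.00122) without 10 mM library 1, whereas ABCA5 had -0.04 ± 0.18 (adjusted p = 0.884). Without 10 mM library 1, 8 members were lower and 4 higher (20.9 and 23.2% of all genes), the 4 higher being ABCC2, ABCE1, ABCF2 and ABCF2-H2BE1. In FPKM, ABCC2 lay higher in every 16 mM library than in every 10 mM library and 0 members lay lower in all of them, beside 13.3 and 4.49% of all tested genes. With 10 mM library 1 left out, 1 and 5 members did so (17.8 and 13.0% of all genes), ABCA8, ABCB5, ABCB8 and ABCC3 among the 5.

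Counting libraries by FPKM rather than fits, 11 of 29 members had every 16 mM library below every control. Another 8 had every one above, and over all tested genes these shares were 22.3 and 23.8%. At 10 mM 7 members lay wholly below control and 1 wholly above (10.5 and 4.55% of all genes), and without 10 mM library 1 these were 7 and 3 (14.2 and 15.0% of all genes). The number of members with at least 10 counts in a library was 29.8 ± 0.408 in control cells (SD, n = 6), 28.0 ± 1.67 at 10 mM (SD, n = 6) and 27.4 ± 0.548 at 16 mM (SD, n = 5). It dropped by 2.43 members at 16 mM (exact two-sided permutation test, p = 0.00433, 0.013 adjusted over 3 comparisons) and dropped by 1.83 members at 10 mM (exact permutation p = 0.0108, adjusted 0.0162). With at least 0.1 FPKM as the limit of detection, the difference was -1.73 at 16 mM (exact permutation p = 0.00433) and -1.17 at 10 mM (exact permutation p = 0.152). With at least 1 count neither held: it was -0.07 at 16 mM (exact permutation p = 1.0) and 0.50 at 10 mM (exact permutation p = 0.781). Over all genes, those with at least 10 counts numbered 12317 to 12519 per control library, 11709 to 12462 at 10 mM and 12031 to 12352 at 16 mM. The drop in members is in part the same as the falls above. ABCB5 had 36 to 133 counts in control libraries and 0 to 4 at 16 mM, and ABCA6 had 17 to 47 and 2 to 10. ABCA1, which was not tested, also crossed the limit of 10 counts, with 5 to 12 counts in control libraries and 1 to 7 at 16 mM.

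Listed gene span and change went together among the members. Spearman's rho between span and log2 change was -0.49 at 16 mM over the 29 members and -0.13 over 11538 tested genes under the span limit, and at 10 mM it was -0.53 and -0.38. Without 10 mM library 1 the 10 mM values were -0.47 over the members and -0.14 over 11523 genes, and the 16 mM values were again -0.49 and -0.13. These are descriptions across genes that share the same libraries. The 13 members under 50 kb had a median log2 change of 0.23 at 16 mM with 1 called lower, the 9 members of 50 to 100 kb had -0.79 with 5 lower, and the 7 members of 100 to 400 kb had -0.74 with 4 lower. Over all tested genes of the same classes the medians were 0.06, 0.05 and -0.20, with 13.3, 15.3 and 29.6% called lower. Without 10 mM library 1, 2, 6 and 5 members of these classes were called lower and 6, 3 and 0 higher, beside 26.8, 27.2 and 47.8% of all genes called lower. ABCF2 covers 15.7 kb, while ABCB5 covers 141.3 kb and ABCA8 88.1 kb.

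**Figure D5:**
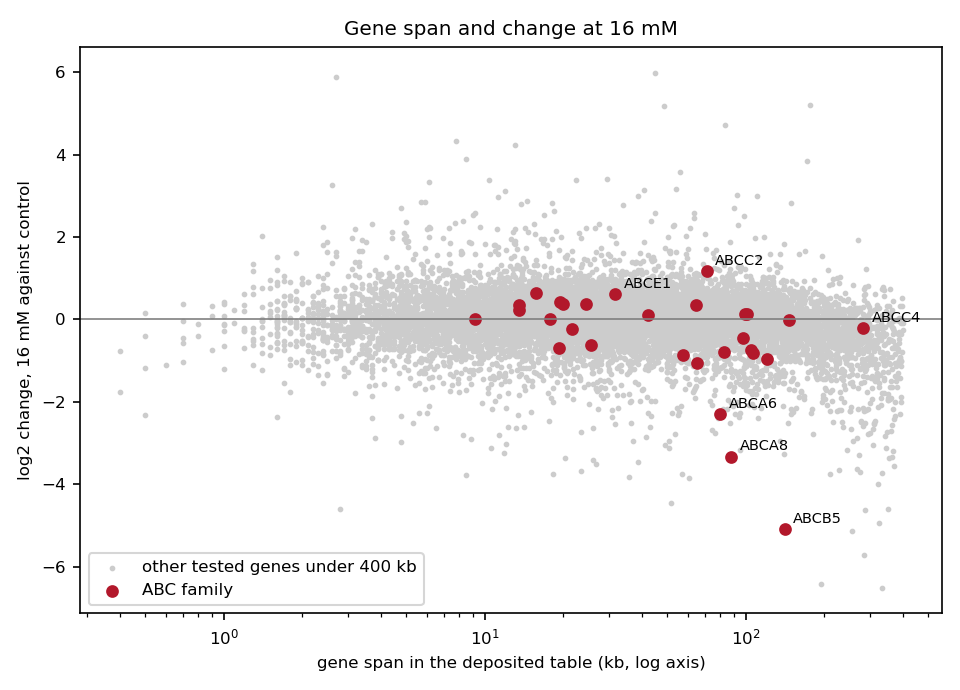
Listed gene span in kb (log axis) against the edgeR log2 change at 16 mM versus control for the 29 tested members (red) among the other tested genes under the span limit (grey). Most members under 50 kb lie near 0 or above, and ABCA6, ABCA8 and ABCB5, all over 50 kb, lie farthest below 0.

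In the authors' deposited table, which rests on their own DESeq2 comparisons and gives a q-value for all 38 members, 8 members were higher and 13 lower at a q-value under 0.05 at 16 mM, beside 25.0 and 25.4% of all its genes with a q-value. At 10 mM the authors' deposited table has 0 members higher and 5 lower (7.74 and 7.68% of all genes), and between doses it has 0 higher and 4 lower (4.29 and 5.23%). Its log2 fold change for ABCA8 was -3.34 at 16 mM and -2.04 at 10 mM, per the authors' deposited table.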

How the data were processed

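RNA of the BEAS-2B line was measured in 17 libraries, grouped by title into control, 10 mM and 16 mM acetaldehyde. Per the labels' protocols, poly-A RNA was fragmented, copied with random primers and circularised; whether strand was kept is not given, so overlapping and antisense genes cannot be told apart. The submitters' processing notes name HISAT, Bowtie2 2.3.4.3, RSEM 1.3.1, DESeq2 1.4.5 and build GRCh38.p13, with no roles.

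The deposited estimated counts, so named per the file headers as read counts, are not normalized, and 13.1% are not whole. The deposited FPKM and TPM values were scaled by the authors; TPM served only to check the table. The authors' log2 fold changes and their p-values and q-values stand in the same deposited table. Of its per-sample columns, 0 were left unmatched.

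Counts were rounded and fitted with edgeR 4.0.16 in R 4.3.3 (TMM, filterByExpr, quasi-likelihood F test, all 17 libraries, no replicate block), adjusted by Benjamini-Hochberg over 12564 genes and called under 0.05, the SE being the log2 change over the root of F. The steps were tested on simulated data. Alternatives were a replicate block, DESeq2 1.42.0 size factors and Wald test, no filter on low counts, limma 3.58.1 on log2(FPKM + 1) and log2(FPKM + 0.1) for genes of at least 1 FPKM in 5 libraries or without that filter, voom with a weight for each library, fits of only the groups compared, each library left out and sums of close libraries, the fits of close libraries being described with the results. Exact permutation tests used SciPy.

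Values in full are given for members called at either dose with a mean of at least 1 FPKM in some group, and for ABCA8, ABCA1, ABCC1, ABCG2 and ABCE1 whatever their result; ABCA6, ABCC2 and ABCF2 were added after their values were seen. A few genes are not reported here by name or value, although the counts over all members and lists include them. Other lists give at most 3 genes, those of the smallest p. The members and lists were chosen with earlier results of these data known. Coordinates are those of the deposited table, promoters were matched by symbol to RefSeq on GRCh38.p14 for 29 of 38 members, and transcript windows of 50 bases were compared within GENCODE 29. Precision at low levels is set by counting: members averaging under 10 counts in every group were not tested.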

Additional observations from a re-analysis of the deposited data

Results flagged for a closer look

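For each described member and group, the library farthest from the rest was compared with the group's range, and in 5 of 42 groups it stood outside Dixon's 95% limit, where chance gives about 1 in 20. Of these, 2 were 10 mM library 1, the lowest of its group in FPKM for ABCA5 at 2.17 FPKM and for ABCC3 at 12.94 FPKM. On the edgeR scale, where its FPKM would be 1.79 times higher, that library would not be the lowest for ABCC3. The 10 mM changes without 10 mM library 1 stand beside each of these genes above. Control library 5 was the lowest control for ABCB8 at 10.29 FPKM, still above every exposed library in FPKM as deposited. On the edgeR scale it would not lie above 10 mM library 1. For ABCF3, 10 mM library 5 was the highest of its group at 35.74 FPKM, although on the edgeR scale library 1, at 31.67 FPKM, would be higher. For ABCG2, control library 2 had 0.07 FPKM on 4 counts where the other control libraries had 0 or 1 count.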

How the results depend on the processing

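The 16 mM and 10 mM counts of called members moved with the setting, while no called change of a described member changed direction in any. Same-numbered libraries deviated from their group means with correlations of -0.371 to 0.406, over 0.1 in 12 of 16 pairs. Differently numbered libraries were not compared in this way, so these values do not decide whether libraries were paired. The titles' numbers were not taken as pairing because the labels do not say that they pair libraries. Members higher at 16 mM, 1 as reported, were 2 with DESeq2 size factors, 2 with the DESeq2 Wald test, 2 with all rows of a family symbol, 4 by limma with either pseudocount, 5 without its filter, 8 with only the groups compared, 9 with the replicate block without 10 mM library 1, 10 by voom with library weights, 10 with the close sets as a term and 0 with their sums. Members lower at 16 mM, 10 as reported, were 5 by limma on log2(FPKM + 0.1) and 0 with the sums. Members higher at 10 mM, 1 as reported, were 0 with DESeq2 size factors, without the filter on low counts, with only the groups compared, with the sums and with the replicate block, 2 with all family rows, 8 with the block without 10 mM library 1, 9 by voom and 10 with the close sets as a term. Members lower at 10 mM, 6 as reported, were 3 by limma with either pseudocount, 12 with the close sets as a term and 0 with the sums. Between doses, members higher, 0 as reported, were 1 by the DESeq2 Wald test, 1 by limma without its filter, and 4 by voom, with the close sets as a term and with the block without 10 mM library 1. Members lower, 4 as reported, were 2 by limma in all its forms, 2 with only the groups compared, 13 with the block without 10 mM library 1, 13 with the close sets as a term, 14 by voom and 0 with the sums. Leaving out each library gave 1 to 9 members higher and 8 to 13 lower at 16 mM, 0 to 8 and 4 to 7 at 10 mM, and 0 to 4 and 3 to 8 between doses; the highest of each came without 10 mM library 1. The number of members detected differed by -2.6 to -2.33 at 16 mM against control, -2.03 to -1.23 at 10 mM against control and -1.2 to -0.4 between doses when each library was left out. With at least 1 count as the limit it was -0.07 at 16 mM and 0.5 at 10 mM, and with 0.1 FPKM it was -1.17 at 10 mM. The median change of all genes between 10 mM and control was -0.11 by limma on log2(FPKM + 1) and -0.14 on log2(FPKM + 0.1), against 0.05 as reported, and -0.02 on log2(FPKM + 1) without the filter. The cause of these differences was not tested. Depth limits the lowest members: ABCB5 at 16 mM, ABCA6, ABCA1 and ABCG2 rest on few counts.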

Other observations

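Values at 10 mM also differed between the close sets in members that were not called. ABCF2-H2BE1 had 18.6 to 22.3 FPKM in 10 mM libraries 2 to 4 and 28.6 and 29.4 FPKM in libraries 5 and 6, beside 22.0 to 24.4 FPKM in control libraries. ABCG4, a sterol transporter known from neurons, ran the other way, with 1.39 to 2.08 FPKM in 10 mM libraries 2 to 4 and 1.28 and 1.31 FPKM in libraries 5 and 6, and 0.66 to 1.22 FPKM in control libraries. Its edgeR log2 change at 10 mM was 0.49 ± 0.38 (adjusted p = 0.375), and 0.72 ± 0.19 (adjusted p = 0.00552) without 10 mM library 1. The bile salt pump ABCB11, outside the span limit, was listed at 0.53 FPKM in 10 mM library 1 and at 0.08 to 0.23 FPKM in all other libraries.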
